A study of Sus scrofa with 3 samples.

Results

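The genes described here are markers of the integrated stress response and the unfolded protein response, the programmes by which cells react to amino acid shortage, viral RNA, oxidants and misfolded protein in the endoplasmic reticulum (ER). They are the transcription factors ATF4, DDIT3, CEBPB, XBP1 and ATF3, the ER chaperone HSPA5, the secreted proteins GDF15 and STC2, the pseudokinase TRIB3 and asparagine synthetase (ASNS). They were chosen by name, with earlier results of these data known, so counts of them below are descriptions and not tests. Every probe that the array names for them, in its gene name, its description or an accession, was used. Probes were found for 7 of the 10 genes, 22 probes in all, among 6464 genes with a symbol and 43603 probes on the array. ATF3, ASNS and TRIB3 matched no probe and were not analysed here.

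RNA came from PIE cells, a non-transformed porcine line derived from the gut epithelium of an unsuckled newborn pig, grown for 3 days on type I collagen. Cells of the TL2937+ETEC group were then kept for 48 h with Lactobacillus jensenii TL2937, cells of the TL2766+ETEC group for 48 h with Lactobacillus plantarum TL2766, and cells of the ETEC group in medium without lactobacilli. After a wash, all 3 groups received ETEC PAMPs for 12 h. These are microbial molecules that innate receptors sense, here from enterotoxigenic Escherichia coli, which sickens piglets. Each group had 1 array, so there was no spread between cultures, and no p-value is given. Cells that had not met ETEC PAMPs were not analysed here, and all values are relative among challenged cultures.

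In the integrated stress response, kinases that sense different stresses phosphorylate the initiation factor eIF2, which lowers most protein synthesis but lets ATF4 mRNA be translated. ATF4, often with CEBP proteins, then switches on genes of amino acid supply, redox balance and, through DDIT3, cell death. In the unfolded protein response, ER sensors act through ATF4, through splicing of XBP1 mRNA and through ATF6 to raise chaperones such as HSPA5. Much of this control is on translation, phosphorylation and splicing, which an mRNA array of this kind does not measure.

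Signals are given as scaled intensities. These are the scanner software's processed intensities after the arrays were brought to a common 75th percentile, which had been 503 on the array of TL2937+ETEC cells, 481 on that of TL2766+ETEC cells and 459 on that of ETEC cells. Differences are on the log2 scale, and a gene is counted as higher or lower where its brightest probe was well above background on both arrays and at least 1.2-fold apart (0.26 log2 units). All 22 probes were well above background on the 3 arrays. The software's own error model puts an error of 0.20 to 0.23 log2 units on each of their differences. Over 25 probes printed in 5 spots the median standard deviation of a difference was 0.078 to 0.11, and the highest was 0.39 to 0.70. Both measures cover spots and not cultures, and a fold of 1.2 is of the size of the first of them.

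The line is labelled as epithelial, and its defining markers were mostly dim. Of 9 epithelial markers with a probe, 5 were well above background on some array, and KRT18, EPCAM, CLDN4 and FABP2 were on none, while KRT8 lay at 18.0 on the array of TL2937+ETEC cells, 23.9 on that of TL2766+ETEC cells and 19.9 on that of ETEC cells. Occludin (OCLN) lay at 922 on the array of TL2937+ETEC cells, 967 on that of TL2766+ETEC cells and 1141 on that of ETEC cells. DSP lay at 183 in TL2937+ETEC, 177 in TL2766+ETEC and 170 in ETEC cells. CDH1 lay at 25.1 in TL2937+ETEC and 17.2 in ETEC cells, and was not well above background in TL2766+ETEC. LGR5 was well above background in ETEC cells alone, at 20.2. All 7 mesenchymal markers with a probe and all 4 endothelial ones were well above background on some array. Vimentin (VIM) lay at 242600 on the array of TL2937+ETEC cells, 252300 on that of TL2766+ETEC cells and 251700 on that of ETEC cells. ACTA2 lay at 41870 in TL2937+ETEC, 47430 in TL2766+ETEC and 53730 in ETEC cells. The other 5 mesenchymal markers, COL1A2, DCN, LUM, PDGFRB and THY1, were dim, between 28.5 and 82.9 over the 3 arrays. The endothelial genes CDH5 and PECAM1 lay at 56570 and 84010 on the array of TL2937+ETEC cells, 55880 and 85370 on that of TL2766+ETEC cells and 60390 and 86720 on that of ETEC cells. KDR lay at 798 in TL2937+ETEC, 753 in TL2766+ETEC and 532 in ETEC cells. VWF was dim, at 15.5 in TL2937+ETEC, 13.8 in TL2766+ETEC and 22.7 in ETEC cells, and not well above background in TL2766+ETEC. Of the leukocyte markers, CD14 was well above background on the 3 arrays, CD3E on the TL2937+ETEC and ETEC arrays, and PTPRC on none. Summed intensities of the epithelial, mesenchymal and endothelial markers were 1180, 284800 and 141400 in TL2937+ETEC cells. They were 1214, 300000 and 142000 in TL2766+ETEC cells, and 1399, 305700 and 147700 in ETEC cells. VIM and ACTA2 made up nearly all of the mesenchymal sum, CDH5 and PECAM1 nearly all of the endothelial sum, and OCLN most of the epithelial sum. Their part in the values below was not tested.

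GDF15, a secreted member of the TGF-beta family that stressed cells release and that acts on appetite through a hindbrain receptor, had the widest range over the 3 arrays of the genes measured by their brightest probe. Its intensity was 496 on the array of TL2937+ETEC cells, 790 on that of TL2766+ETEC cells and 617 on that of ETEC cells. The L. jensenii culture was therefore the lowest and the L. plantarum culture the highest, with cells without lactobacilli between them. GDF15 was 1.24-fold lower in TL2937+ETEC than in ETEC cells (log2 difference -0.32) and 1.28-fold higher in TL2766+ETEC than in ETEC cells (0.36). Each of these is larger than the error of 0.20 that the software gives. Each is smaller than the highest standard deviation between spots in its comparison, 0.39 with TL2937 and 0.70 with TL2766. In bulk RNA, fewer cells expressing a gene and less RNA per cell cannot be told apart. Between the lactobacillus cultures GDF15 was 1.59-fold lower in TL2937+ETEC than in TL2766+ETEC cells (-0.67), and only 0.670% of the 4927 genes measured on both arrays had a lower difference. The gene was read by 1 probe, so no other probe bears on this value. The first 30 of its 60 bases are shown because the member with the widest range rests on this probe alone. Sequences here and below are as the probe column of the array lists them, and positions in the genome were not used here.
GDF15 A_72_P409208: ttcttgcttgtccaatgggtttgtggcacc

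STC2 (stanniocalcin 2), a secreted glycoprotein induced through ATF4 and active in calcium handling, was low with either lactobacillus. Its intensity was 148 on the array of TL2937+ETEC cells, 152 on that of TL2766+ETEC cells and 197 on that of ETEC cells. Both pretreated cultures lay below the culture without lactobacilli and close to each other. The log2 difference was -0.41 for TL2937+ETEC against ETEC, a 1.33-fold lower signal, and -0.37 for TL2766+ETEC against ETEC, a 1.29-fold lower signal, while the pretreated cultures differed by -0.039. STC2 too has 1 probe, shown whole for the same reason.
STC2 A_72_P088741: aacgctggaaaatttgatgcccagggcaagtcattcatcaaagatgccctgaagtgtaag

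The paralogue STC1, from the list of other stress response genes, had its lowest signal in ETEC cells. Its intensity was 1661 in TL2937+ETEC, 1938 in TL2766+ETEC and 1451 in ETEC cells. Its log2 differences from ETEC were 0.20 with TL2937 and 0.42 with TL2766, and both of its measured probes were above 0 in each case.

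**Figure D1:**
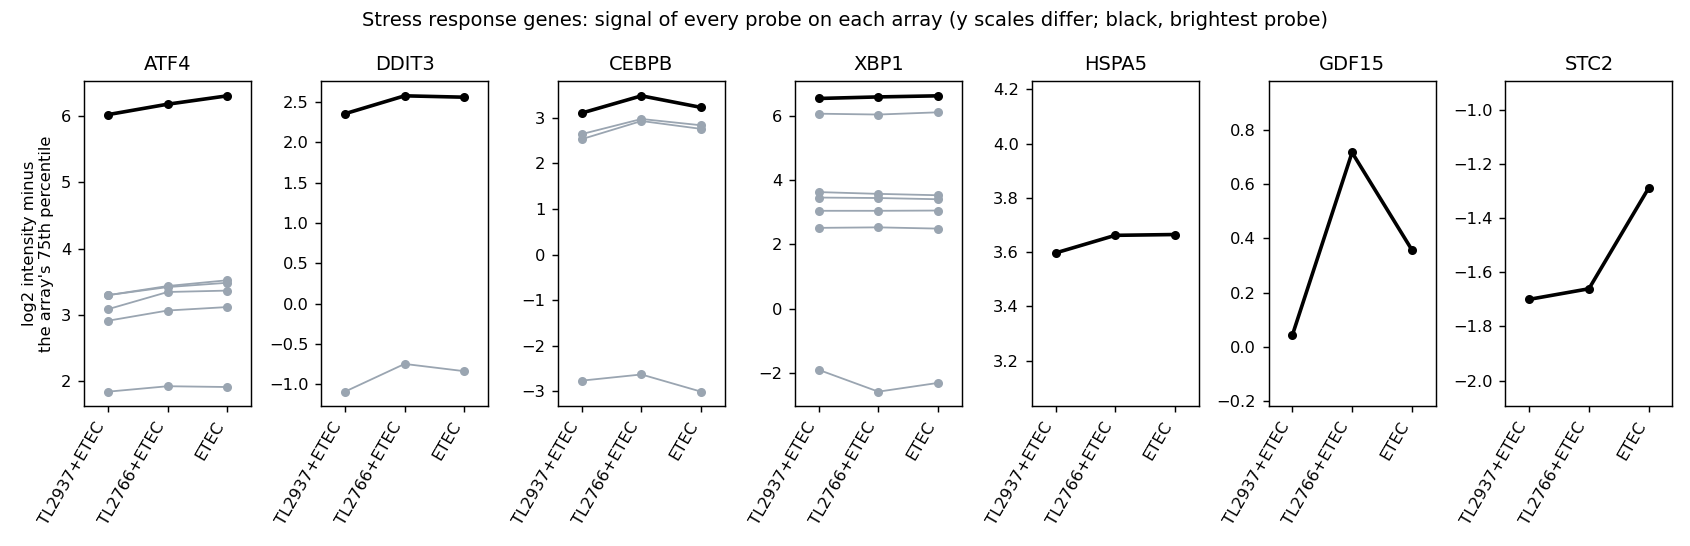
Signal of every probe of the 7 genes on the 3 arrays (x axis), as log2 processed intensity minus the 75th percentile of the array (y axis, a scale of its own for each gene). Lines join the values of a probe, black for the brightest probe of a gene and grey for the others; GDF15 is lowest in TL2937+ETEC (496) and highest in TL2766+ETEC (790), and STC2 is highest in ETEC (197).

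ATF4, the transcription factor at the centre of the integrated stress response, was lower in TL2937+ETEC cells on all 6 of its probes. Its brightest probe read 31210 on the array of TL2937+ETEC cells, 34780 on that of TL2766+ETEC cells and 37950 on that of ETEC cells. That is the order TL2937+ETEC, TL2766+ETEC, ETEC, low to high. The log2 difference of TL2937+ETEC from ETEC was -0.28 on this probe, a 1.22-fold lower signal. Over the 6 probes it averaged -0.21 ± 0.078 (SD over probes) and ran between -0.28 and -0.070. For TL2766+ETEC against ETEC the 6 probes averaged -0.057 ± 0.049, with 5 below 0 and 1 above 0. Between the lactobacillus cultures they averaged -0.15 ± 0.059, with all 6 below 0. Probes of a gene read the same RNA on the same array, so their agreement speaks for the reading and not for the culture.

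The ATF4 probes are also not all separate in sequence. The brightest probe overlaps no other by 12 bases or more, whereas A_72_P284859 and A_72_P689016 share 50 of their 60 bases, in capitals here, and their differences for TL2937+ETEC against ETEC were -0.22 and -0.21. They are shown to make clear how far these 2 values repeat each other.
ATF4 A_72_P601533: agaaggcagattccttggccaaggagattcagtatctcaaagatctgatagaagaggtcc
ATF4 A_72_P284859: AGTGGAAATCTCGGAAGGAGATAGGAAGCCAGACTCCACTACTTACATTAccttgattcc
ATF4 A_72_P689016: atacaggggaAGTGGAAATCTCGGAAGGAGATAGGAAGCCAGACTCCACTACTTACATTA

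DDIT3, also known as CHOP, is a target of ATF4 that promotes cell death under lasting ER stress. Its brighter probe read 2461 in TL2937+ETEC, 2872 in TL2766+ETEC and 2837 in ETEC cells. Its other probe read 226 in TL2937+ETEC, 287 in TL2766+ETEC and 269 in ETEC cells. On both probes the TL2937+ETEC culture was the lowest, and TL2766+ETEC lay slightly above ETEC, an order that turned on the brighter probe under 1 alternative. The differences of TL2937+ETEC from ETEC were -0.20 and -0.25, both within 1.2-fold, and those of TL2766+ETEC from ETEC were 0.017 and 0.090. Between the lactobacillus cultures they were -0.22 and -0.34, and only the dimmer probe passed 1.2-fold, at 1.27-fold lower in TL2937+ETEC. That probe is shown because it alone carries the larger value.
DDIT3 A_72_P440751: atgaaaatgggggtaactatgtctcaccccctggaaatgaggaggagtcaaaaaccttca

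CEBPB, a transcription factor that pairs with ATF4 and also drives acute-phase and cytokine genes, was highest in TL2766+ETEC cells on all 4 probes. The brightest probe read 4138 in TL2937+ETEC, 5373 in TL2766+ETEC and 4504 in ETEC cells, and the other bright ones read 2781 and 3004 in TL2937+ETEC, 3664 and 3777 in TL2766+ETEC and 3251 and 3432 in ETEC cells. On these 3 probes TL2937+ETEC was the lowest culture. The difference of TL2937+ETEC from TL2766+ETEC was -0.38 on the brightest probe, a 1.30-fold lower signal, and averaged -0.31 ± 0.12 (SD over the 4 probes). For TL2766+ETEC against ETEC the 4 probes averaged 0.24 ± 0.11, all above 0, and the brightest, at 1.19-fold, was just short of 1.2-fold. For TL2937+ETEC against ETEC they averaged -0.074 ± 0.22.

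The CEBPB probes disagreed on that last comparison. The 3 bright probes, which the array design describes as lying in the 3′ untranslated region, gave -0.12, -0.22 and -0.19 for TL2937+ETEC against ETEC, a mean of -0.18 ± 0.053. The other probe was dim, at 70.8 in TL2937+ETEC, 77.7 in TL2766+ETEC and 59.8 in ETEC cells, and gave 0.24. The direction of CEBPB with TL2937 against ETEC therefore differs between its probes, while that between the lactobacillus cultures does not. The longest single run that a pair of the bright probes shares is 29 to 46 bases, so that these are not separate readings. The longest run of A_72_P213602 with A_72_P642520 is bases 26 to 60 of the former. Together with the run in capitals below it takes in all of A_72_P213602, so these 2 probes are close to 1 reading. The first 30 bases of A_72_P213602 and A_72_P642520 are given with the run they share within these bases in capitals, which is not the longest run counted above, beside the dim probe that went the other way.
CEBPB A_72_P213602: GAGGCATCTGTATATTTGGGAATCTTTtcc
CEBPB A_72_P642520: GAGGCATCTGTATATTTGGGAATCTTTccg
CEBPB A_72_P399493: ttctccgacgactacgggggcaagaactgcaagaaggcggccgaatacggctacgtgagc

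XBP1, the transcription factor made active when the ER sensor IRE1 splices its mRNA, hardly differed between the arrays. The array calls 6 of its probes XBP1P1, a pseudogene, but their accession is that of XBP1 in the RefSeq annotation of assembly Sscrofa11.1. The brightest of them read 44440 in TL2937+ETEC, 45950 in TL2766+ETEC and 47020 in ETEC cells. The 6 probes averaged 0.007 ± 0.065 (SD over probes) for TL2937+ETEC against ETEC, 0.001 ± 0.046 for TL2766+ETEC against ETEC and 0.006 ± 0.036 for TL2937+ETEC against TL2766+ETEC. No value among them was beyond 0.10 in size. Splicing was not measured.

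A further probe, described only as matching a small part of bovine XBP1, stood apart from these. It read 129 in TL2937+ETEC, 80.7 in TL2766+ETEC and 97.5 in ETEC cells, with differences of 0.41, -0.27 and 0.68 in the 3 comparisons. Which transcript it binds was not checked here, and it is left out of the XBP1 means above.

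HSPA5, also known as BiP, the ER chaperone most used as a sign of the unfolded protein response, was close to level. Its probe read 5817 in TL2937+ETEC, 6086 in TL2766+ETEC and 6097 in ETEC cells. The differences were -0.068 for TL2937+ETEC against ETEC, -0.002 for TL2766+ETEC cells against ETEC cells and -0.065 between the lactobacillus cultures, all well inside the error of 0.20. The probe is shown because HSPA5 too rests on it alone.
HSPA5 A_72_P416982: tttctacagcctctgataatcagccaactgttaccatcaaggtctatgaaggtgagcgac

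**Figure D2:**
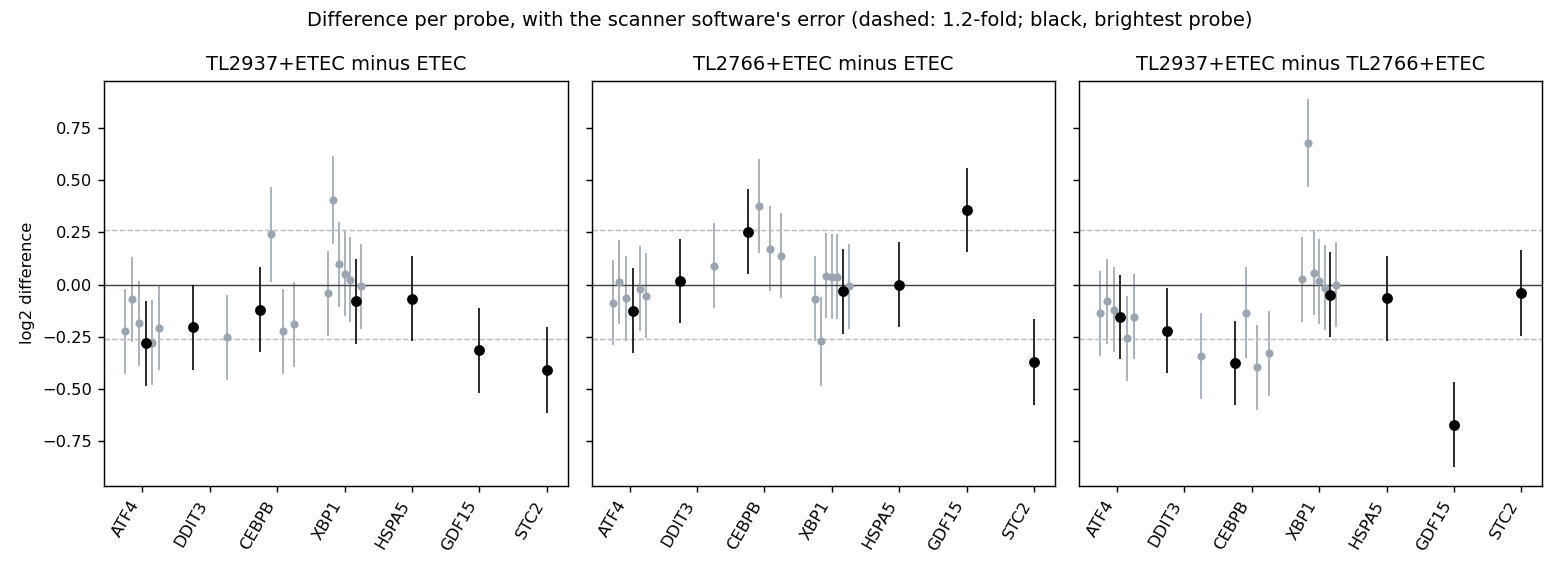
Log2 difference (y axis) of each probe of the 7 genes (x axis) in the 3 comparisons, with bars for the error that the scanner software gives to the 2 spots. Black points are the brightest probes and dashed lines mark 1.2-fold; the ATF4 probes lie between -0.28 and -0.070 in TL2937+ETEC minus ETEC, and GDF15 lies at -0.67 in TL2937+ETEC minus TL2766+ETEC.

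The values of TL2937+ETEC against ETEC cells compare 1 challenged culture pretreated with L. jensenii with 1 challenged culture without lactobacilli. Of the 7 genes, ATF4, GDF15 and STC2 were at least 1.2-fold lower in TL2937+ETEC cells, 4 were within 1.2-fold and 0 were higher. Among the 4913 genes measured in this pair, 12.4% were lower by that fold and 7.31% higher. All 7 genes had a difference below 0 by their brightest probe, with a median of -0.20. The median over all genes was -0.041, so most of all genes lay below 0 too. HSPA5 and XBP1, at -0.068 and -0.081, were near that overall median, with 43.3% and 40.0% of all genes lower. For XBP1, though, the sign turned with the mean of all its probes, and the count of lower genes was 2 with quantile, cyclic loess or detected-probe scaling, with a filter at the median detected signal and with the mean of all probes. No gene of the 7 reached 1.5-fold, past which 2.26% of all genes were lower and 1.06% higher, or 2-fold, past which 0.142% were lower and 0.244% higher.

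For L. plantarum, set against the same ETEC array, GDF15 was at least 1.2-fold higher and STC2 at least 1.2-fold lower in TL2766+ETEC cells, and 5 genes were within 1.2-fold. Over all 4886 genes measured, 8.17% were at least 1.2-fold higher and 8.88% lower, so that 1 of 7 in each direction is no result about these genes. None reached 1.5-fold, past which 1.43% of all genes were higher and 1.53% lower, or 2-fold, past which 0.327% were higher and 0.246% lower. The median of the 7 was -0.002, against 0.001 over all genes. CEBPB came next, at 0.25, above 91.4% of all genes.

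In TL2937+ETEC against TL2766+ETEC, GDF15 and CEBPB were at least 1.2-fold lower in the L. jensenii culture, 5 genes were within 1.2-fold and 0 were higher. With the mean of all probes, 3 genes were lower, DDIT3 among them at -0.28. Of the 4927 genes measured, 7.37% were lower by that much and 4.28% higher. The 7 brightest probes all lay below 0, as did most of all genes. STC2, HSPA5 and XBP1 were, though, at or above 0 under 1 to 3 alternatives each. The median of the 7 was -0.16 against -0.043 for all genes. Only GDF15 passed 1.5-fold, as 1.01% of all genes did in this direction and 0.386% in the other. None reached 2-fold, past which 0.203% of all genes were lower and 0.0812% higher. The values of XBP1, HSPA5 and STC2, at -0.048, -0.065 and -0.039, were at the level of that overall median. The 3 comparisons share arrays, so they are not independent of each other: a high or low reading of the ETEC array enters both comparisons with it.

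**Figure D3:**
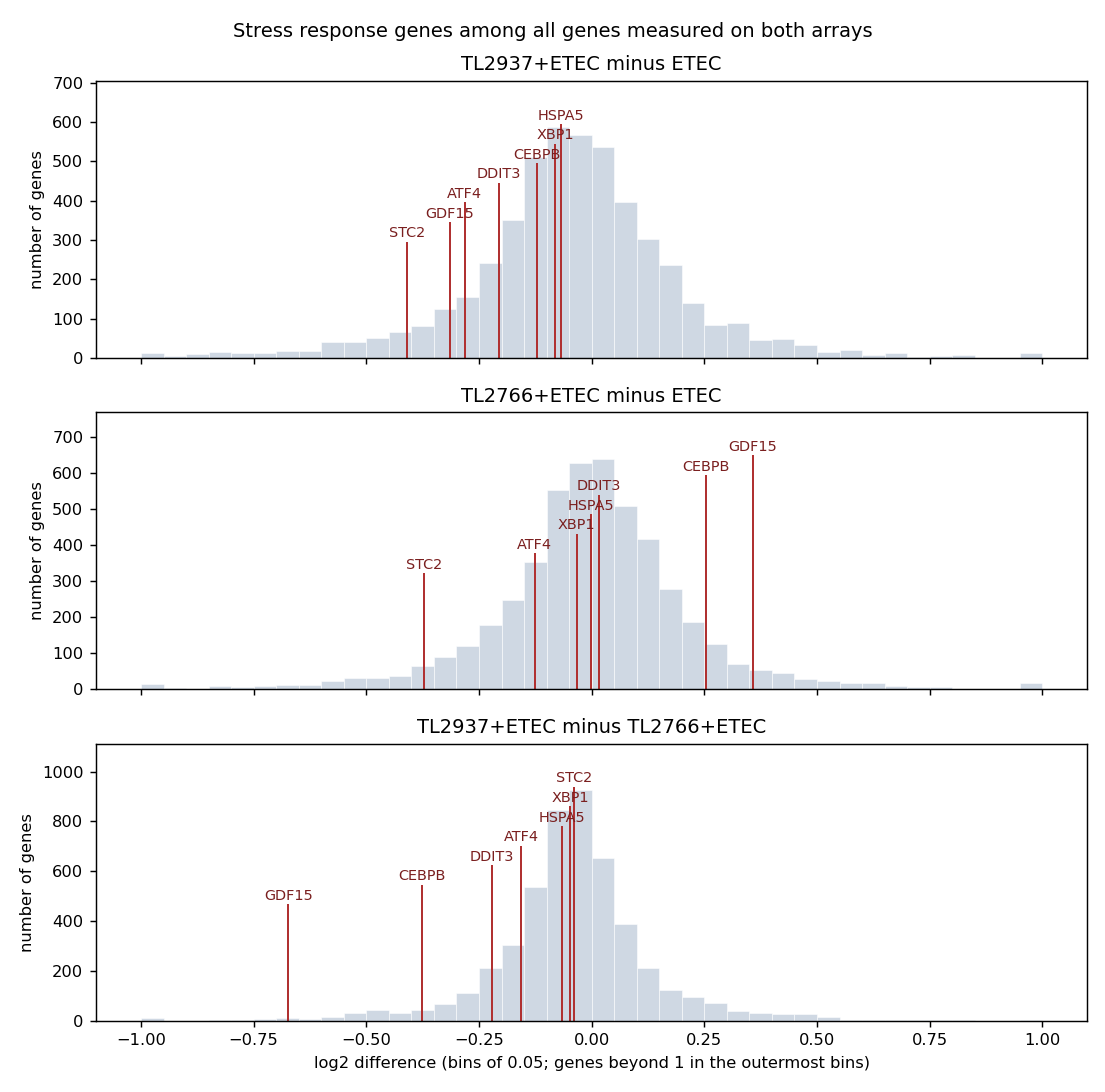
Number of genes (y axis) by log2 difference (x axis, bins of 0.05) in each comparison, with red lines at the brightest probes of the 7 stress response genes. Their median is -0.20 in TL2937+ETEC minus ETEC, -0.002 in TL2766+ETEC minus ETEC and -0.16 in TL2937+ETEC minus TL2766+ETEC.

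The lists below hold other genes of these programmes, and some genes stand in more than 1 list. The lists too were chosen with earlier results of these data known, so their counts are descriptions. Upstream of ATF4, 1 gene passed 1.2-fold, in TL2937+ETEC against ETEC, where 12.4% of all genes were lower and 7.31% higher. Of 14 kinases, eIF2 and eIF2B subunits and phosphatase subunits listed, 5 were measured, and no phosphatase subunit was among them. Their medians were -0.044 for TL2937+ETEC against ETEC, -0.001 for TL2766+ETEC cells against ETEC cells and -0.059 between the lactobacillus cultures. EIF2AK2 (PKR), the eIF2 kinase for double-stranded RNA and itself an interferon-induced gene, read 6645 in TL2937+ETEC, 7109 in TL2766+ETEC and 8518 in ETEC cells. On its 1 measured probe it was 1.28-fold lower in TL2937+ETEC than in ETEC cells (-0.36), and it differed by -0.26 in TL2766+ETEC. EIF2AK3 (PERK), the eIF2 kinase of the ER, differed from ETEC by -0.092 with TL2937 and -0.042 with TL2766. EIF2S1, the phosphorylated subunit of eIF2, differed by 0.051 and 0.17.

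Genes of amino acid synthesis and transport, which ATF4 induces, were lower or level in TL2937+ETEC cells. Of 18 listed, 11 were measured, of which 3 were at least 1.2-fold lower in TL2937+ETEC cells, 8 within and 0 higher, with a median of -0.19. Over all genes in this comparison 12.4% were lower and 7.31% higher, with a median of -0.041. The amino acid transporter SLC38A2 read 54530 in TL2937+ETEC, 62530 in TL2766+ETEC and 68380 in ETEC cells. Its difference was -0.33 for TL2937+ETEC against ETEC, and all 9 of its probes were below 0. PSAT1, of serine synthesis, read 799 in TL2937+ETEC, 966 in TL2766+ETEC and 993 in ETEC cells, and differed by -0.31 with TL2937, with all 6 probes below 0. PHGDH, which opens that pathway, read 615 in TL2937+ETEC, 611 in TL2766+ETEC and 760 in ETEC cells. On this brightest probe it was low with either lactobacillus (-0.30 and -0.31). Its other measured probe was below 0 by less, at -0.19 with TL2937 and -0.072 with TL2766.

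With TL2766 against ETEC, 1 of the 11 amino acid genes was at least 1.2-fold lower and 0 higher, at a median of -0.035. Over all genes 8.88% were lower and 8.17% higher, so that this count is no result about these genes. PCK2, the mitochondrial PEP carboxykinase, differed by 0.18. Between the lactobacillus cultures the median was -0.13, with PSAT1 alone at least 1.2-fold lower in TL2937+ETEC (-0.27, on 5 of 6 probes below 0) and PCK2 at -0.24. Over all genes 7.37% were lower by that fold there and 4.28% higher. Only 3 of 12 aminoacyl-tRNA synthetases were measured, and their medians were -0.10, 0.035 and -0.090 in the 3 comparisons. WARS, which charges tryptophan and is also interferon-induced, was read by 1 probe. It was 1.22-fold lower in TL2937+ETEC than in TL2766+ETEC cells (-0.29) and differed from ETEC by -0.26 with TL2937. SARS lay at -0.031 with TL2937 and 0.058 with TL2766 against ETEC, and EPRS at -0.10 and -0.093.

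The other stress response factors and targets that were measured all had their highest signal in TL2766+ETEC cells, by the brightest probe under this scaling; other scalings of this list were not tried. Of 16 listed, 8 were measured, with medians of -0.071 for TL2937+ETEC against ETEC, 0.17 for TL2766+ETEC against ETEC and -0.21 for TL2937+ETEC against TL2766+ETEC, where the medians of all genes were -0.041, 0.001 and -0.043. In TL2766+ETEC cells STC1 and VEGFA were at least 1.2-fold higher than in ETEC cells, 6 genes were within 1.2-fold and 0 were lower, while 8.17% of all genes were higher by that fold. The growth factor VEGFA read 1715 in TL2937+ETEC, 2265 in TL2766+ETEC and 1696 in ETEC cells, with a difference of 0.42 for TL2766 and 0.016 for TL2937. DDIT4 (REDD1), a brake on mTORC1, read 3121 in TL2937+ETEC, 4302 in TL2766+ETEC and 3730 in ETEC cells. It was 1.38-fold lower in TL2937+ETEC than in TL2766+ETEC cells (-0.46, both probes below 0). VEGFA differed by -0.40 there, and the 6 other genes were within 1.2-fold, while 7.37% of all genes were lower by that fold.

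No gene of the ER lists passed 1.2-fold in any of the 3 comparisons. Of all genes, 12.4% were lower by that fold and 7.31% higher in TL2937+ETEC against ETEC. The shares were 8.88% and 8.17% in TL2766+ETEC against ETEC, and 7.37% and 4.28% between the lactobacillus cultures. Of 22 chaperones and folding enzymes listed, 12 were measured, with medians of -0.068, 0.009 and -0.11. The chaperone HSP90B1 (GRP94) read 66200 in TL2937+ETEC, 71940 in TL2766+ETEC and 76660 in ETEC cells. Its difference from ETEC was -0.21 with TL2937, with all 8 probes below 0. Calreticulin (CALR), read by 1 probe, differed by -0.25 with TL2937 and -0.15 with TL2766. DNAJB11 lay at 0.11 with TL2766 against ETEC, and DNAJC3 and the oxidase ERO1A at -0.14 and -0.13 between the lactobacillus cultures. Of 16 sensors and genes of ER-associated degradation, 6 were measured. Their medians were -0.059, 0.061 and -0.069. ATF6, the sensor cleaved under ER stress, differed by -0.093 with TL2937, DERL3 by 0.11 with TL2937 and 0.13 with TL2766, and SELENOS by 0.098 with TL2766 and by -0.13 between the lactobacillus cultures, where UBE2J1 lay at -0.14.

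Cytosolic heat shock genes, a separate stress programme, had medians of -0.096 (TL2937+ETEC against ETEC), -0.019 (TL2766+ETEC against ETEC) and -0.064 over 11 of 16 genes. CRYAB, a small heat shock protein, was at least 1.2-fold lower than in ETEC with either lactobacillus (-0.36 and -0.29). It was read by 1 probe, and no other of these genes reached that fold. Against ETEC, 12.4% of all genes were lower by that fold with TL2937 and 8.88% with TL2766. DNAJB1 differed by -0.26 with TL2937 against either culture, on 3 of 3 probes, and HSF2 by -0.21 with TL2766 against ETEC cells and by 0.12 between the lactobacillus cultures.

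Targets of p53, which also induces GDF15, were measured for 9 of 10 genes. With TL2937 against ETEC 4 were at least 1.2-fold lower and 0 higher (median -0.22), where 12.4% of all genes were lower and their median was -0.041. With TL2766 against ETEC 2 were lower and 0 higher (median -0.15), where 8.88% of all genes were lower and their median was 0.001. Between the lactobacillus cultures none reached 1.2-fold, and the median was -0.077, where 7.37% of all genes were lower and 4.28% higher. Cyclin G1 (CCNG1) read 20550 in TL2937+ETEC, 20390 in TL2766+ETEC and 26760 in ETEC cells (differences of -0.38 with TL2937 and -0.39 with TL2766). The death receptor FAS differed by -0.35 and -0.26, but its other measured probe went the other way, at 0.098 and 0.56. BTG2 and PLK3 each lay at -0.19 between the lactobacillus cultures.

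Among 17 other ATF, CREB, AP-1 and CEBP factors, 10 were measured against ETEC and none reached 1.2-fold, with medians of -0.028 for TL2937 and 0.029 for TL2766. Of all genes, 12.4% were lower and 7.31% higher by that fold with TL2937, and 8.88% and 8.17% with TL2766. CREB1 differed by -0.26 and -0.19 and CEBPZ by -0.21 with TL2937, and CEBPG, a partner of ATF4, by 0.24 with TL2766. Between the lactobacillus cultures 11 were measured, at a median of -0.098, and CEBPA was 1.60-fold lower in TL2937+ETEC than in TL2766+ETEC cells, at intensities of 13.9 and 22.3. It was read by 1 probe, near the lowest detected signals of these arrays (11.6 and 11.8) and not well above background on the ETEC array. FOS differed by -0.23, but its probes disagreed and reached 0.58.

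**Figure D4:**
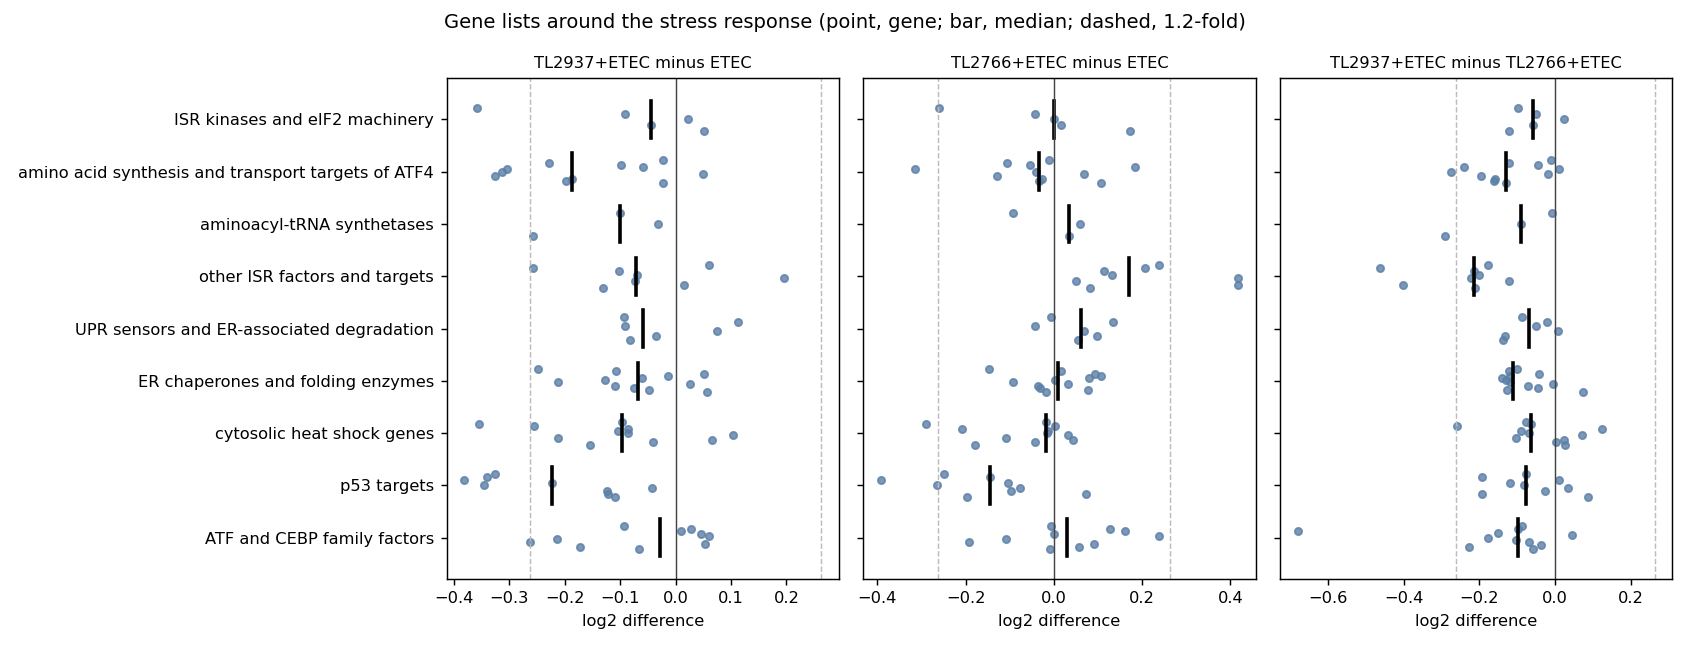
Log2 differences (x axis) of the measured genes of 9 lists (y axis) in the 3 comparisons, with a point for each gene, a bar at the median of a list and dashed lines at 1.2-fold. Points of the ER chaperones all lie inside the dashed lines, and the median of the other stress response factors is 0.17 in TL2766+ETEC minus ETEC and -0.21 in TL2937+ETEC minus TL2766+ETEC.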

How the data were processed

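Per the labels, 200 ng of total RNA from each of 3 PIE cell cultures was labelled with Cy3 and hybridised to 1-colour Agilent porcine arrays. Per the file headers, scanner software (Agilent Feature Extraction 10.7.3.1) made the deposited intensity: background was subtracted, a spatial trend taken out and surrogate values given to spots close to background. The deposited flags of the scanner software (score 0 or 1) gave detection. The authors' value table held the same intensity, within 0.496%.

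Here log2 intensity minus each array's 75th percentile was used, scaled intensities being multiplied back by 481. Control spots and outlier spots (9, 4 and 8 on the TL2937+ETEC, TL2766+ETEC and ETEC arrays) were left out, no spot was saturated, and a gene was represented by its brightest probe. Names came from the array, accessions, gene identifiers and descriptions, through RefSeq of Sscrofa11.1 (13798 of 43603 probes). With 1 array per group no test was made, and the number of arrays limits precision. All arrays lay on 1 slide, so position and group cannot be told apart. The genes and lists were chosen with earlier results of these data known. Named genes were all those with a probe and the 2 of each list furthest apart in a comparison. The steps were tested on simulated data. Alternatives were a normexp correction (offset 50), other scalings, filters, probe summaries and folds. Used were R 4.3.3 with limma 3.58.1, and Python 3.11.15 with pandas 2.3.3, numpy 2.4.6 and matplotlib 3.10.9. Part of the leukocyte marker list is not reported here.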

Additional observations from a re-analysis of the deposited data

Results flagged for a closer look

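GDF15 lay on opposite sides of its ETEC value with the 2 lactobacilli. Its log2 difference was -0.315 in TL2937+ETEC and 0.358 in TL2766+ETEC cells. With 1 array per group and 1 probe the gap between these values was not tested, and its direct value is the -0.67 given above. With fewer than 4 arrays in every group no array could be examined as an outlier of its group.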

How the results depend on the processing

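Over 11 alternative settings of background, scaling, value table, filter, probe summary and outlier spots, the median of the 7 genes stayed between -0.22 and -0.16 for TL2937+ETEC against ETEC and between -0.19 and -0.095 for TL2937+ETEC against TL2766+ETEC. For TL2766+ETEC against ETEC it was near 0 throughout and changed sign, to 0.012 with the normexp correction, to 0.007 with the 75th percentile over detected probes and to 0.007 above the median detected signal. Of 228 single gene values, 225 moved by less than the median spread between spots and 3 by more, and no gene past 1.2-fold changed sign. The ones that moved were GDF15 between the lactobacillus cultures, at -0.57 with normexp, and XBP1 with the mean of all probes, at 0.064 for TL2937+ETEC against ETEC and 0.10 against TL2766+ETEC. That XBP1 mean takes in the further probe matching a small part of bovine XBP1, which gave 0.41 and 0.68 in these 2 comparisons. Without it the XBP1 means were 0.007 and 0.006. The cause of the GDF15 move was not tested. For TL2766+ETEC against ETEC, 2 genes were 1.2-fold higher with the detected-probe percentile in place of 1, and 0 were lower above the median detected signal in place of 1, since STC2 fell out of that filter. At 1.5-fold or 2-fold the 3 lower genes of TL2937+ETEC against ETEC became 0, the higher and the lower gene of TL2766+ETEC against ETEC each became 0, and the 2 lower genes of TL2937+ETEC against TL2766+ETEC became 1 at 1.5-fold and 0 at 2-fold. No paired analysis was possible because each group has 1 array. No array could be left out for the same reason. All 22 probes were well above background, so signal over background set no limit on detecting them.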
